A study of Mus musculus with 36 samples.

Results

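The interferon-induced chemokines Cxcl9, Cxcl10 and Cxcl11 and the homeostatic or membrane-bound chemokines Cxcl12, Cxcl14, Cxcl16 and Cx3cl1 were followed in enteric glial cells (EGCs), the glia of the gut's own nervous system. The 7 genes were taken by name from a count table of 43472 genes. All of them had counts in at least 1 of the 36 libraries. The EGCs were wild-type primary cells from the intestines of C57BL/6J mouse embryos at E13.5, grown as neurospheres and then differentiated with serum. Cultures were left unstimulated, received H-CM (medium conditioned overnight by digested healthy colon) or received TME-CM (medium conditioned overnight by digested orthotopic MC38 colon tumors), and RNA was collected after 6 h, after 12 h or after 24 h. Each of the 9 groups had 4 libraries. A conditioned medium carries whatever the digested tissue releases, so a group stands for that mixture and not for a single factor. The cells are embryonic and cultured.

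Chemokines are small secreted proteins that guide leukocytes through G protein-coupled receptors. Cxcl9, Cxcl10 and Cxcl11 are ligands of Cxcr3 on activated T and NK cells and are classical interferon targets. Cxcl12 signals through Cxcr4, is taken up by the scavenger receptor Ackr3, and is made by stromal cells in many resting tissues. Cxcl16 and Cx3cl1 are made as membrane-anchored proteins and released by the proteases Adam10 and Adam17, and their receptors are Cxcr6 and Cx3cr1. Cxcl14 is a constitutive chemokine of epithelia and stroma.

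The 3 interferon-induced genes are neighbors on chromosome 5 of the mouse (mm10), all on the minus strand, within 44139 bases. Cxcl9 lies at chr5:92321347-92328079, Cxcl10 at chr5:92346638-92348889 and Cxcl11 at chr5:92359544-92365485. Cxcl11 is annotated as a polymorphic pseudogene in GENCODE and as a transcribed pseudogene in RefSeq, while the other 6 genes are protein-coding. Cxcl12 lies at chr6:117168535-117181367 (plus strand), Cx3cl1 at chr8:94772009-94782427 (plus strand), Cxcl16 at chr11:70453983-70459984 (minus strand) and Cxcl14 at chr13:56288643-56296551 (minus strand). The exons of Cxcl10 share 133 of 2252 bases with Art3, and those of Cxcl16 share 552 of 3021 bases with Zmynd15, both on the opposite strand. The exons of Cxcl11 share 1582 of 3794 bases with the pseudogene Gm2673, also on the opposite strand. Whether counting used strand is not given in the sources used here, so reads from shared bases cannot be told apart. Art3 had at most 49 counts in a library, Zmynd15 at most 31, and Gm2673 had 0 in all 36.

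RefSeq promoters (GRCm38.p6, the 250 bases before the transcript start) were given for Cxcl9, Cxcl10, Cxcl12, Cxcl14 and Cx3cl1. They were searched on both strands for the core of the interferon-stimulated response element (GAAANNGAAA), for the gamma-activated site (TTCNNNGAA) and for the NF-kB consensus. Of these, 3 are printed, in the direction of transcription and with the matches in capitals: the neighbors Cxcl9 and Cxcl10, of which Cxcl10 was called higher with TME-CM while Cxcl9 passed no test, and Cxcl14, which was called lower at 24 h.
Cxcl9: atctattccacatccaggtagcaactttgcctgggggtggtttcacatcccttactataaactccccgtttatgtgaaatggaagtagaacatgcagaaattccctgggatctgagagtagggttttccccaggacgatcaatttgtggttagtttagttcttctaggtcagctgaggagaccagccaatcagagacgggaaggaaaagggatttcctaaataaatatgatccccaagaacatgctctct
Cxcl10: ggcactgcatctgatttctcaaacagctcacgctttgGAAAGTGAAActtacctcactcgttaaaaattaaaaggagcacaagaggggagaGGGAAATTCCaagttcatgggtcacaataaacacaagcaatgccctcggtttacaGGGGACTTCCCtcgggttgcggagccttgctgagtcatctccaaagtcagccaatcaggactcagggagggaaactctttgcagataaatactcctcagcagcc
Cxcl14: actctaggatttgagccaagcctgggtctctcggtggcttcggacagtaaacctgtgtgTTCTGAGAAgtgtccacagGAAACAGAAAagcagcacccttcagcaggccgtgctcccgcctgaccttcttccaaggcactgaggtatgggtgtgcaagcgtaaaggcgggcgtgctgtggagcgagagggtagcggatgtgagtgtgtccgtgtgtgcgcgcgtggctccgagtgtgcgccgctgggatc
The Cxcl10 window (chr5:92348890-92349139) holds 1 response element core, GAAAGTGAAA, from position -213 to -204 counted from the transcript start, and NF-kB matches from -159 to -150 and from -104 to -94, the second of these being a pair of overlapping matches. The Cxcl14 window (chr13:56296552-56296801) holds a response element core, GAAACAGAAA, from -172 to -163 and a gamma-activated site, TTCTGAGAA, from -191 to -183. The windows of Cxcl9 (chr5:92328080-92328329), Cxcl12 and Cx3cl1 hold no exact match to any of the motifs. Among 32851 promoters of the same length, 2.98% hold the response element core, 7.02% the gamma-activated site and 7.25% the NF-kB consensus. A match of letters is not evidence of binding, and the lack of an exact match in a window is not evidence that a site is missing.

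Levels are given as CPM (a gene's counts scaled to a common library size), scaled over all 36 libraries. Reads come from transcript 3′ ends, and CPM were not divided by gene length. Library totals ran from 13518 to 7552509 counts. The median total was 1526580 in the 6 h libraries, 4090589 in those of 12 h and 5465090 in those of 24 h. One H-CM library of 6 h, replicate 4, holds the lowest total, in which 3 counts stand for 110 CPM, so its zeros say little about any member. The glial markers Sox10, S100b, Erbb3 and Sox2 were found in each group, the sum of 9 glial markers lay between 105 and 559 CPM over the libraries, and no glial marker was called in any comparison of media. Fibroblast and smooth muscle markers were also abundant, with sums of 1811 to 8538 CPM and 1398 to 7845 CPM. In such a culture, fewer cells of a type and less RNA per cell cannot be told apart.

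**Figure D1:**
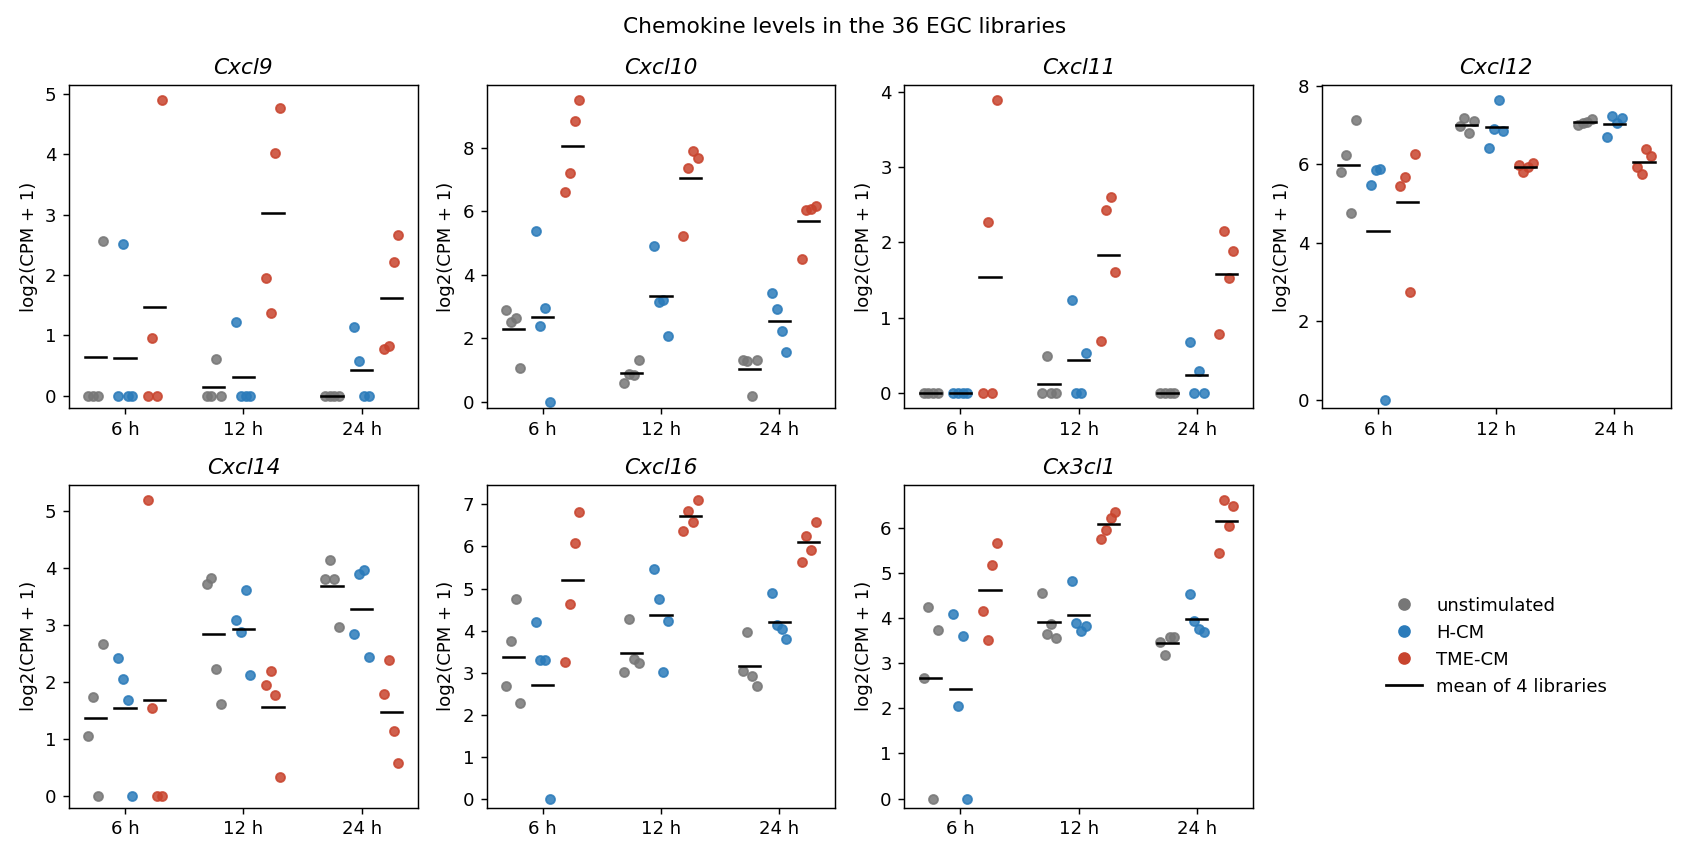
Level of each of the 7 chemokine genes, as log2(CPM + 1), in every library by time after stimulation; grey, blue and red points are unstimulated, H-CM and TME-CM libraries, and the bar is the mean of 4 libraries. At 12 h and 24 h the TME-CM points of Cxcl10, Cxcl16 and Cx3cl1 lie above all H-CM points, and those of Cxcl12 lie below them.

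The first question was how TME-CM changed these chemokines relative to H-CM, the medium of healthy tissue. At 24 h, Cxcl10, Cxcl16 and Cx3cl1 were higher and Cxcl12 and Cxcl14 lower in TME-CM EGCs. Cxcl9 and Cxcl11 had too few counts for the fit across genes. Differences are log2 fold changes with SE from edgeR's quasi-likelihood test of 4 against 4 libraries, and a gene is called at a Benjamini-Hochberg adjusted p under 0.05. At 24 h all 5 members tested were called (3 higher, 2 lower), where 5.4% of 12713 genes tested were called. At 12 h, 4 of the 5 tested were called (3 higher, 1 lower), beside 1.89% of 12156 genes. At 6 h, 1 of the 4 tested was called, Cxcl10, beside 0.0972% of 9256 genes. Cxcl14 also stayed under the count filter at 6 h. At 6 h Cxcl10 reached the filter's level in all 4 TME-CM libraries but in only 1 H-CM library, so that its testing rested on the group in which it was high. Cxcl16 and Cx3cl1 reached that level in all 4 TME-CM libraries, in 2 H-CM libraries and in 2 unstimulated libraries.

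Cxcl10, which draws Cxcr3-bearing lymphocytes, showed the widest range of the 7 genes. At 6 h the 4 TME-CM libraries held 95.5, 148, 460 and 726 CPM, the H-CM libraries 40.8, 4.21, 6.65 and 0 CPM, and the unstimulated libraries 6.47, 4.69, 5.23 and 1.06 CPM. At 12 h they held 36.3, 163, 237 and 202 CPM with TME-CM, 29.0, 7.74, 8.19 and 3.21 CPM with H-CM, and 0.508, 0.818, 0.793 and 1.502 CPM without stimulation. At 24 h they held 21.3, 64.7, 65.8 and 71.2 CPM with TME-CM, 9.75, 6.63, 3.71 and 1.98 CPM with H-CM, and 1.502, 1.44, 0.141 and 1.48 CPM without stimulation. Every TME-CM library was above every H-CM and unstimulated library of its time. The lowest TME-CM library and the highest H-CM library were both replicate 1 at each time, and at 12 h they stood at 36.3 and 29.0 CPM. The difference from H-CM was 4.49 ± 0.84 (log2, SE) at 6 h (edgeR adjusted p = 0.0441), 3.78 ± 0.68 at 12 h (adjusted p = 0.0145) and 3.26 ± 0.46 at 24 h (adjusted p = 0.000639). The 6 h call was lost when any of H-CM replicates 2, 3 and 4 or TME-CM replicates 3 and 4 was left out (adjusted p up to 0.292), and the 12 h call when H-CM replicate 2 or 3 was (adjusted p up to 0.075). The 6 h call was also lost with DESeq2's size factors and in a fit of only the 8 libraries compared. The 24 h call held without each of the 8 libraries in turn.

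Cxcl9, whose product shares Cxcr3 with that of Cxcl10, and Cxcl11, annotated as a pseudogene, were near the limit of detection. Cxcl9 had 0, 1, 0 and 131 counts in the TME-CM libraries of 6 h, 14, 4, 75 and 102 at 12 h, and 5, 2, 27 and 32 at 24 h. In H-CM libraries it had 0, 9, 0 and 0 counts at 6 h, 5, 0, 0 and 0 at 12 h, and 6, 3, 0 and 0 at 24 h. The 12 h TME-CM libraries were all above the H-CM libraries in CPM, whereas at 6 h a single TME-CM library carried almost all counts. Cxcl11 had 0, 4, 0 and 63 counts with TME-CM at 6 h, 3, 11, 25 and 8 at 12 h, and 5, 9, 14 and 16 at 24 h, against at most 5 in any H-CM library. On log2 CPM with a prior count of 2, the TME-CM and H-CM libraries of Cxcl9 at 12 h and of Cxcl11 at 24 h differed with p = 0.0286 in two-sided exact permutation tests, the smallest p that 4 against 4 libraries allow, and an adjusted p of 0.0905 over the 19 such tests made. None of the 19 passed after adjustment.

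Cxcl16, which can sit on the membrane as well as be shed, had 8.61, 23.8, 67.2 and 111 CPM with TME-CM at 6 h and 17.5, 8.95, 8.87 and 0 CPM with H-CM, and these groups overlapped. At 12 h it had 81.5, 114, 94.95 and 137 CPM with TME-CM against 43.0, 26.0, 7.06 and 17.8 CPM with H-CM. At 24 h it had 48.9, 74.7, 59.8 and 94.96 CPM against 28.9, 16.7, 15.4 and 12.8 CPM. The groups of 12 h and 24 h did not overlap. The difference from H-CM was 2.20 ± 0.39 on the log2 scale at 12 h (edgeR adjusted p = 0.00381) and 1.89 ± 0.30 at 24 h (adjusted p = 0.000756), and it was 2.23 ± 0.92 at 6 h (adjusted p = 0.749). A model of all 36 libraries lost the 24 h call (adjusted p = 0.0845).

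Cx3cl1 (fractalkine), the ligand of Cx3cr1 on monocytes and macrophages, had 53.0, 60.7, 73.7 and 80.5 CPM with TME-CM at 12 h and 27.4, 13.9, 12.1 and 13.1 CPM with H-CM. At 24 h it had 42.3, 97.3, 64.9 and 88.6 CPM against 22.1, 14.2, 12.4 and 11.9 CPM. All TME-CM libraries were above all H-CM libraries at both times. At 6 h it had 16.8, 10.5, 34.8 and 49.9 CPM against 16.02, 3.16, 11.1 and 0 CPM, with overlap. The difference was 2.03 ± 0.30 on the log2 scale at 12 h (edgeR adjusted p = 0.000575), 2.25 ± 0.24 at 24 h (adjusted p = 5.42e-06) and 1.57 ± 1.04 at 6 h (adjusted p = 0.911). The calls of 12 h and 24 h held under every alternative run.

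Cxcl12 was the most abundant of the 7 genes without stimulation, and it was lower with TME-CM. At 12 h it had 62.2, 55.1, 59.7 and 64.1 CPM with TME-CM, 84.3, 117, 198 and 113 CPM with H-CM, and 124, 144, 109 and 136 CPM without stimulation. At 24 h it had 59.6, 52.8, 82.5 and 73.0 CPM with TME-CM, 102, 149, 131 and 145 CPM with H-CM, and 128, 131, 133 and 140 CPM without stimulation. All TME-CM libraries of 12 h and 24 h were below all libraries of the other groups of their time. Cxcl12 fell by 1.09 ± 0.22 on the log2 scale against H-CM at 12 h (edgeR adjusted p = 0.00943) and by 0.97 ± 0.15 at 24 h (adjusted p = 0.000229). At 6 h the levels were 42.6, 50.5, 5.74 and 75.5 CPM with TME-CM and 43.7, 56.9, 57.7 and 0 CPM with H-CM, a difference of -0.15 ± 0.64 (adjusted p = 0.987). The calls of Cxcl12 held without each library in turn and were lost in the model of all 36 libraries.

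Cxcl14 had 2.45, 4.21, 1.21 and 0.502 CPM with TME-CM at 24 h, 6.17, 13.7, 14.5 and 4.45 CPM with H-CM, and 13.02, 16.6, 12.95 and 6.78 CPM without stimulation. Every TME-CM library was below every other library of 24 h, the closest pair being 4.21 and 4.45 CPM, and the H-CM library at 4.45 CPM rests on 9 counts. Cxcl14 fell by 2.46 ± 0.49 on the log2 scale against H-CM (edgeR adjusted p = 0.00316), a call that was lost in the model of all 36 libraries. At 12 h the levels were 2.85, 3.59, 2.43 and 0.257 CPM with TME-CM and 7.52, 6.33, 11.2 and 3.36 CPM with H-CM, and the difference of -1.63 ± 0.70 did not pass (adjusted p = 0.388). At 6 h TME-CM replicate 1 had 153 counts (35.6 CPM), while the other 3 TME-CM libraries had 2, 0 and 0. The group mean at 6 h therefore rests on 1 library.

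Markers of other cells moved in the same comparison. At 24 h, 4 of 6 smooth muscle markers were lower with TME-CM than with H-CM (Acta2, Myh11, Cnn1 and Des), and their sum was 1640 to 2382 CPM against 3160 to 3881 CPM. In the endothelial list the sum was 10.2 to 24.6 CPM against 30.7 to 60.3 CPM, with Cldn5 at 0 in both groups and Tek at 0 with TME-CM, and Kdr was called lower. Kdr made up most of that sum, with 12.6 ± 6.40 CPM with TME-CM and 39.9 ± 11.6 CPM with H-CM. Pecam1 was not called (-0.58 ± 0.49, edgeR adjusted p = 0.647), and Cdh5, under the filter, had means of 0.222 and 0.212 CPM. The smooth muscle markers and Kdr moved in the direction of Cxcl12 and Cxcl14, and their part in those results was not tested. In the fibroblast list 4 of 6 markers were higher (Pdgfra, Dcn, Lum and Col3a1), and the sum was 6317 to 8012 CPM against 5025 to 5690 CPM. Myeloid markers did not separate the media. Their sum was 68.5 to 337 CPM with TME-CM and 76.1 to 320 CPM with H-CM at 24 h, all 10 of them had counts in both groups, and 0 of 8 tested were called (Fcgr1 and Aif1 were under the filter). Sums of T and NK cell markers were at most 6.13 CPM with TME-CM and 2.94 CPM with H-CM at 24 h, with Cd3g, Cd8a and Trac at 0 in both, and epithelial sums at most 4.21 and 6.43 CPM, with Krt8 at 0 in both. Of 6 neuronal markers 0 were called, with sums of 311 to 495 CPM against 362 to 442 CPM.

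**Figure D2:**
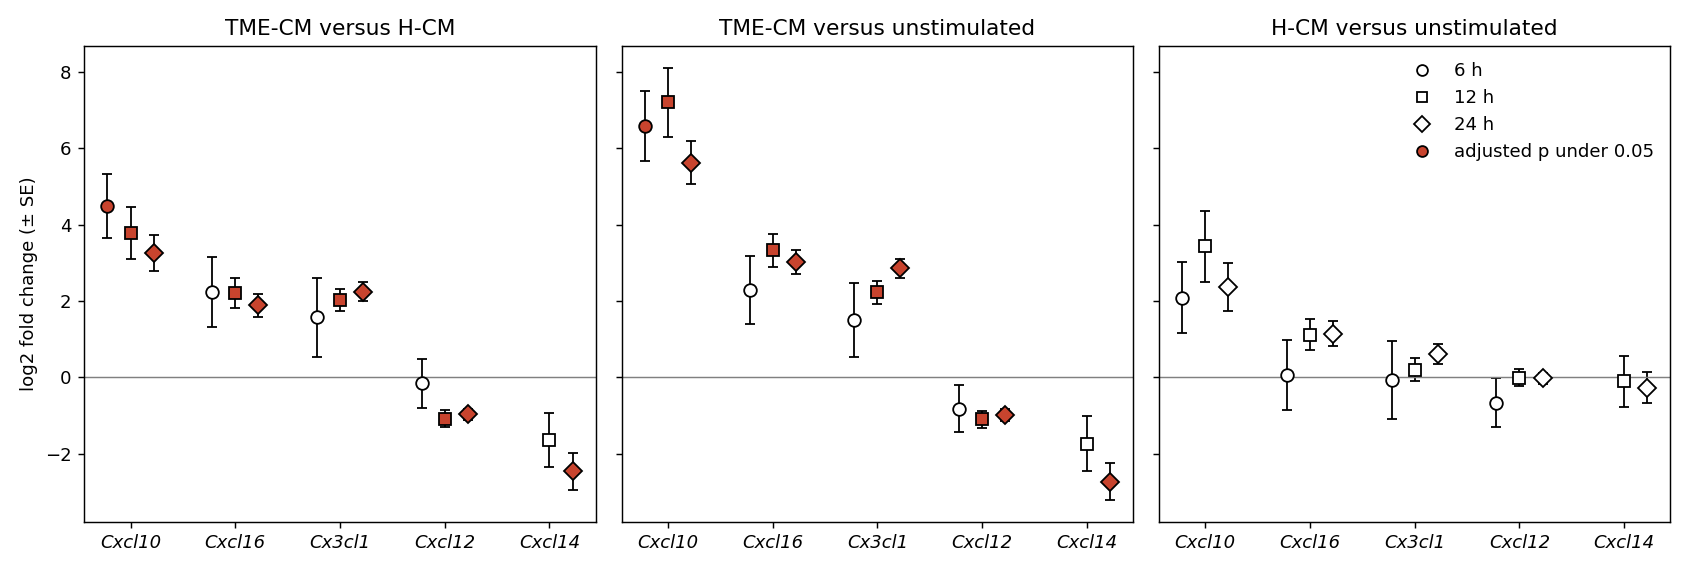
Log2 fold changes with SE of the 5 chemokine genes that could be tested, for each comparison of media, at 6 h (circles), 12 h (squares) and 24 h (diamonds), 4 libraries per group; red symbols have an adjusted p under 0.05 and Cxcl14 was not tested at 6 h. Cxcl10 lies highest in each panel, Cxcl12 and Cxcl14 lie under 0 with TME-CM at 12 h and 24 h, and no symbol is red in H-CM against unstimulated EGCs.

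The second question was how each medium compared with no stimulation. The unstimulated and TME-CM libraries enter more than one comparison, so the values are set side by side and not taken as independent. Against unstimulated EGCs, TME-CM gave calls for all 5 members tested at 24 h (3 higher, 2 lower), beside 9.52% of all genes tested, for 4 of 5 at 12 h (3 higher, 1 lower), beside 4.41%, and for 1 of 4 at 6 h, Cxcl10, beside 0.454%. Cxcl10 was 6.58 ± 0.92 higher on the log2 scale at 6 h (edgeR adjusted p = 0.000863), 7.20 ± 0.91 at 12 h (adjusted p = 0.000437) and 5.62 ± 0.56 at 24 h (adjusted p = 9.33e-06). At 6 h it reached the filter's level in all 4 TME-CM libraries and in 0 of 4 unstimulated ones, so that here too its testing rested on the group in which it was high. Cxcl16 was 3.32 ± 0.42 higher at 12 h and 3.03 ± 0.32 at 24 h. Cx3cl1 was 2.23 ± 0.30 higher at 12 h and 2.86 ± 0.25 at 24 h. Cxcl12 fell by 1.10 ± 0.22 at 12 h and by 0.99 ± 0.15 at 24 h, and Cxcl14 fell by 2.73 ± 0.48 at 24 h (adjusted p = 0.000545). These 3 calls were lost in the model of all 36 libraries (adjusted p of 0.144 and 0.267 for Cxcl12 and 0.284 for Cxcl14), which at 24 h called 4 members, all higher. In the same comparison at 24 h, 6 of 6 smooth muscle markers were lower (median log2 difference -1.88) and 1 of 8 myeloid markers was higher, Cd14, by 2.69 ± 0.57 (adjusted p = 0.00245), and their part in these results was not tested.

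Cxcl9 and Cxcl11 had 0 counts in all 4 unstimulated libraries of 24 h. Against 3 counts over the group, the level with TME-CM was at least 24.4-fold higher for Cxcl9 and at least 16.3-fold higher for Cxcl11. At 12 h, Cxcl9 had 195 counts over the 4 TME-CM libraries and 2 over the unstimulated ones, a ratio of 93.1 (95% interval 25.4 to 774), and Cxcl11 had 47 and 1, a ratio of 44.9 (7.67 to 1810). These bounds and intervals cover counting error only. For both genes and both times the groups did not overlap (two-sided exact permutation p = 0.0286, adjusted p = 0.0905 over 19 tests).

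H-CM against unstimulated EGCs gave no call among the members tested at 6 h (0 of 4), 12 h (0 of 5) or 24 h (0 of 5), where 0%, 0.403% and 2.03% of all genes were called. At 6 h 0 of 9256 genes passed edgeR's test and 58 had an unadjusted p under 0.05. Cxcl10, Cxcl16 and Cx3cl1 nevertheless had higher levels in most H-CM libraries of 24 h. For Cxcl10 all 4 H-CM libraries were above all unstimulated libraries at 12 h (log2 difference 3.43 ± 0.93, edgeR adjusted p = 0.341) and at 24 h (2.36 ± 0.62, adjusted p = 0.08). DESeq2's Wald test called Cxcl10 at both times. Cxcl16 had 12.8 to 28.9 CPM with H-CM at 24 h and 5.43 to 14.7 CPM without stimulation, with 3 of 4 H-CM libraries above all unstimulated ones and a difference of 1.14 ± 0.32 (adjusted p = 0.0944), and it was called by DESeq2 and when unstimulated replicate 2 was left out. Cx3cl1 had 11.9 to 22.1 CPM against 7.995 to 11.0 CPM, 4 of 4 above, with a difference of 0.61 ± 0.26 (adjusted p = 0.362). Cxcl12 stood at 132 ± 21.3 CPM with H-CM and 133 ± 5.19 CPM without stimulation at 24 h (SD, n = 4), a log2 difference of -0.02 ± 0.15, and Cxcl14 differed by -0.27 ± 0.40. In this comparison 6 of 6 smooth muscle markers were lower as well, with a median of -1.13.

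The order of the 9 group means differed between members, and most neighbors in it overlapped. Cxcl10 was ordered TME-CM at 6 h (357 ± 294 CPM, SD, n = 4), at 12 h (159 ± 87.6 CPM) and at 24 h (55.8 ± 23.1 CPM), then H-CM at 6 h (12.9 ± 18.8 CPM), 12 h (12.0 ± 11.5 CPM) and 24 h (5.52 ± 3.42 CPM), then the unstimulated groups (0.905 to 4.37 CPM). Each group's range overlapped that of the next. Cxcl16 was highest with TME-CM at 12 h (107 ± 24.2 CPM), then with TME-CM at 24 h (69.6 ± 19.9 CPM) and 6 h (52.8 ± 46.3 CPM), and lowest without stimulation at 24 h (8.50 ± 4.21 CPM). Cx3cl1 was highest with TME-CM at 24 h (73.3 ± 24.8 CPM) and 12 h (67.0 ± 12.4 CPM), and the latter was the one group whose range did not overlap that of the next, TME-CM at 6 h (28.0 ± 17.9 CPM). Cxcl12 was highest in the unstimulated and H-CM groups of 12 h and 24 h (128 to 133 CPM), between which no order could be read, and TME-CM at 24 h (67.0 ± 13.3 CPM) and 12 h (60.3 ± 3.89 CPM) stood below the unstimulated cells of 6 h (73.7 ± 48.1 CPM). Cxcl14 ran from 12.3 ± 4.09 CPM without stimulation at 24 h to 2.09 ± 1.63 CPM with TME-CM at 24 h.

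Between 12 h and 24 h no member passed the test in any medium, 0 of 7 in each. Of 13105 genes, 0.626% were called in TME-CM, 0.00763% in H-CM and 0.0153% in unstimulated EGCs. Cxcl9 and Cxcl11, under the filter in each time's own fit, entered this fit of both times. They reached each time's filter level in 0 H-CM and 0 unstimulated libraries, so their testing rested on TME-CM. Without stimulation Cxcl9 had 2 counts at 12 h and 0 at 24 h, and Cxcl11 had 1 and 0, so their tests there could decide nothing. With TME-CM, Cxcl10 differed between 24 h and 12 h by -1.51 ± 0.56 on the log2 scale (edgeR adjusted p = 0.415), with 1 of 4 libraries of 24 h below all of 12 h. Cxcl9 differed by -2.07 ± 0.96 (adjusted p = 0.596) and Cxcl16 by -0.61 ± 0.37 (adjusted p = 0.756). The change of the TME-CM effect over H-CM was also tested directly, from 12 h to 24 h and from 6 h to 24 h, and 0% of all genes passed in either test, with 436 and 1021 genes at an unadjusted p under 0.05. For Cxcl10 the effect changed by -0.51 ± 0.87 from 12 h to 24 h and by -1.28 ± 0.999 from 6 h to 24 h. Neither a smaller TME-CM level at 24 h than at 12 h nor a smaller effect at 24 h was shown. For Cxcl14 the change from 6 h to 24 h was -3.88 ± 1.85 (adjusted p = 0.59) and became 0.85 without the TME-CM library of 6 h that held 153 counts.

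The mix of counts among the 7 genes differed between media. Of the counts of the 7 genes, Cxcl12 took 74.6% to 85.6% in the unstimulated libraries of 12 h and 76.3% to 85.1% at 24 h, and it took 12.2% to 26.0% and 17.7% to 33.9% in the TME-CM libraries. In H-CM libraries it took 43.5% to 83.7% at 12 h and 59.7% to 82.3% at 24 h. Cxcl10 took 48.0% to 81.0% of these counts in the TME-CM libraries of 6 h, 15.2% to 48.6% at 12 h and 12.1% to 23.5% at 24 h. Cxcl16 and Cx3cl1 together formed the larger part at 24 h, with means of 25.6% and 26.6% of the counts in TME-CM libraries against 10.3% and 8.45% in H-CM libraries. The shares follow from the levels given above and were not tested.

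**Figure D3:**
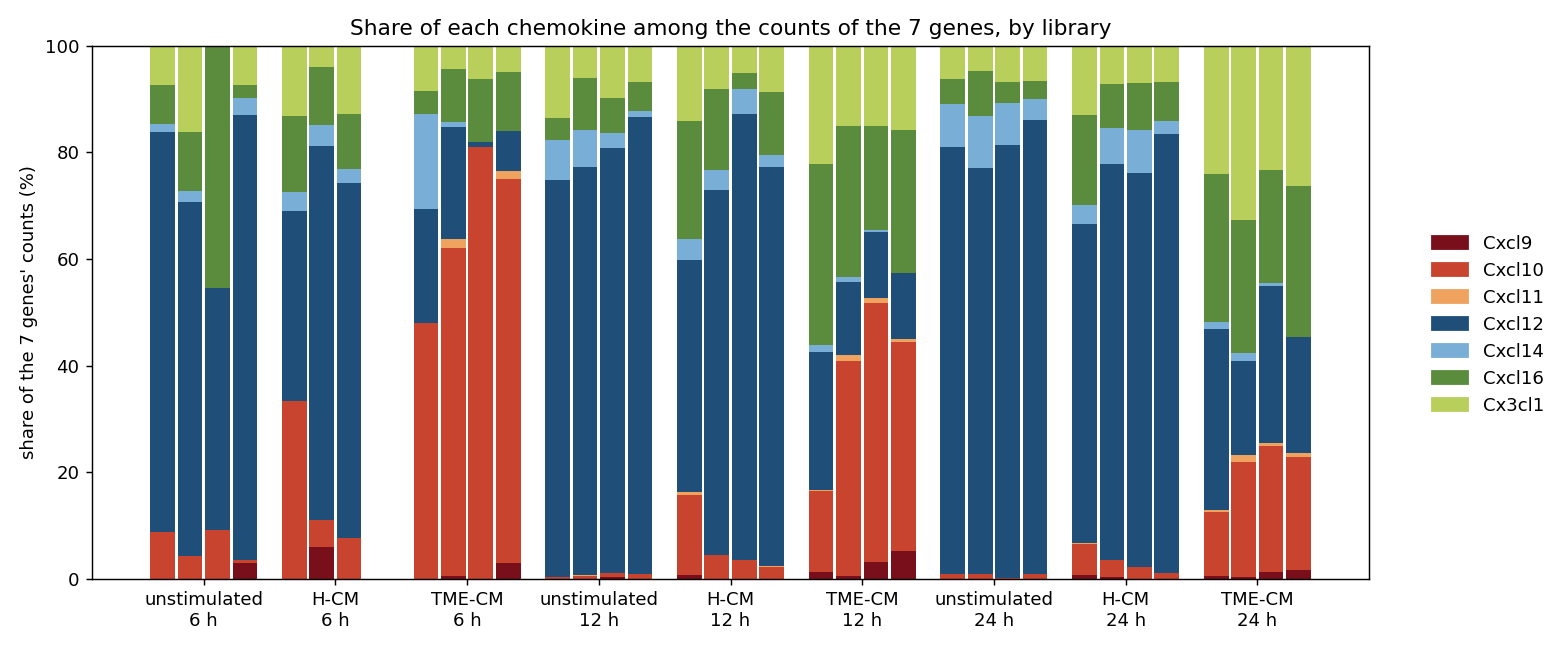
Share of each of the 7 chemokine genes in their summed counts (percent), one bar per library, in the order of replicates 1 to 4 within each group; H-CM replicate 4 of 6 h had no count for any of the 7 and is left blank. Cxcl12 fills most of each unstimulated and H-CM bar, with exceptions in H-CM replicate 1 of 6 h (35.7%) and of 12 h (43.5%). A further exception is unstimulated replicate 3 of 6 h (45.5%). Cxcl10, Cxcl16 and Cx3cl1 together fill most of the TME-CM bars.

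The receptors of these chemokines were low in the EGC libraries. Cxcr4 and Ackr3 were not called in any comparison of media in which they were tested. Cxcr3, Cxcr6 and Cx3cr1 stayed under the count filter. Of the 8 receptor and protease genes listed, 3 were tested at 6 h and 4 at 12 h and at 24 h. Cxcr3, the receptor of Cxcl9, Cxcl10 and Cxcl11, was at 0 in all libraries of 6 groups, and its highest value, 26.2 CPM in an unstimulated library of 6 h, stands for 5 counts. Cxcr6 had group means of 0.109 to 1.55 CPM, Cx3cr1 of 0.0365 to 2.12 CPM and Dpp4, a protease that trims chemokines, of 0 to 0.371 CPM. Cxcr4 had 2.28 ± 2.85 CPM with TME-CM and 1.82 ± 1.11 CPM with H-CM at 24 h (log2 difference 0.10 ± 0.78, edgeR adjusted p = 0.974). Ackr3 had 7.91 ± 2.82 and 8.58 ± 2.41 CPM (-0.12 ± 0.29, adjusted p = 0.912). The sheddases of Cxcl16 and Cx3cl1 were higher than the receptors. Adam10 had 92.6 ± 5.15 CPM with TME-CM and 103 ± 15.8 CPM with H-CM at 24 h (-0.16 ± 0.13, adjusted p = 0.641), and Adam17 had 72.0 ± 10.7 and 62.4 ± 2.64 CPM (0.21 ± 0.16, adjusted p = 0.602). Against unstimulated EGCs (40.8 ± 10.7 CPM), Adam17 was 0.81 ± 0.16 higher with TME-CM at 24 h (adjusted p = 0.0016), the 1 call among the 4 genes of this list that were tested.

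Other interferon target genes moved in the direction of Cxcl10. Against unstimulated EGCs, 20 of 23 tested were higher with TME-CM at 12 h and 21 of 23 at 24 h, with median differences of 4.60 and 3.66 on the log2 scale beside -0.0028 and 0.0044 over all genes. With H-CM, 8 of 23 were higher at 12 h and 13 of 23 at 24 h, at both of which Cxcl10 did not pass. Their median differences were 2.04 and 1.69, and 0.403% and 2.03% of all genes were called in either direction. Between TME-CM and H-CM, 1 of 22 was higher at 6 h, 3 of 23 at 12 h and 8 of 23 at 24 h. Of all genes, 0.0972%, 1.89% and 5.4% were called there in either direction. At 24 h the largest differences of called genes between the media were those of Gbp5, a guanylate-binding protein (3.44 ± 0.81), the immunoproteasome subunits Psmb8 (2.83 ± 0.40) and Psmb9 (2.57 ± 0.51), and the GTPase Iigp1 (2.50 ± 0.57). The count between the media at 24 h depended on the model: it was 0 with all 36 libraries in one model, 15 without a filter, and 4 to 15 with single libraries left out. At 12 h it was 16 without a filter and 2 to 14 with single libraries left out. None of the list was lower in any of these comparisons. Usp18, an inhibitor of interferon signalling that H-CM also raised, was not called between the media. It had 22.7 ± 15.3 CPM with H-CM and 35.1 ± 8.77 CPM with TME-CM at 24 h.

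**Figure D4:**
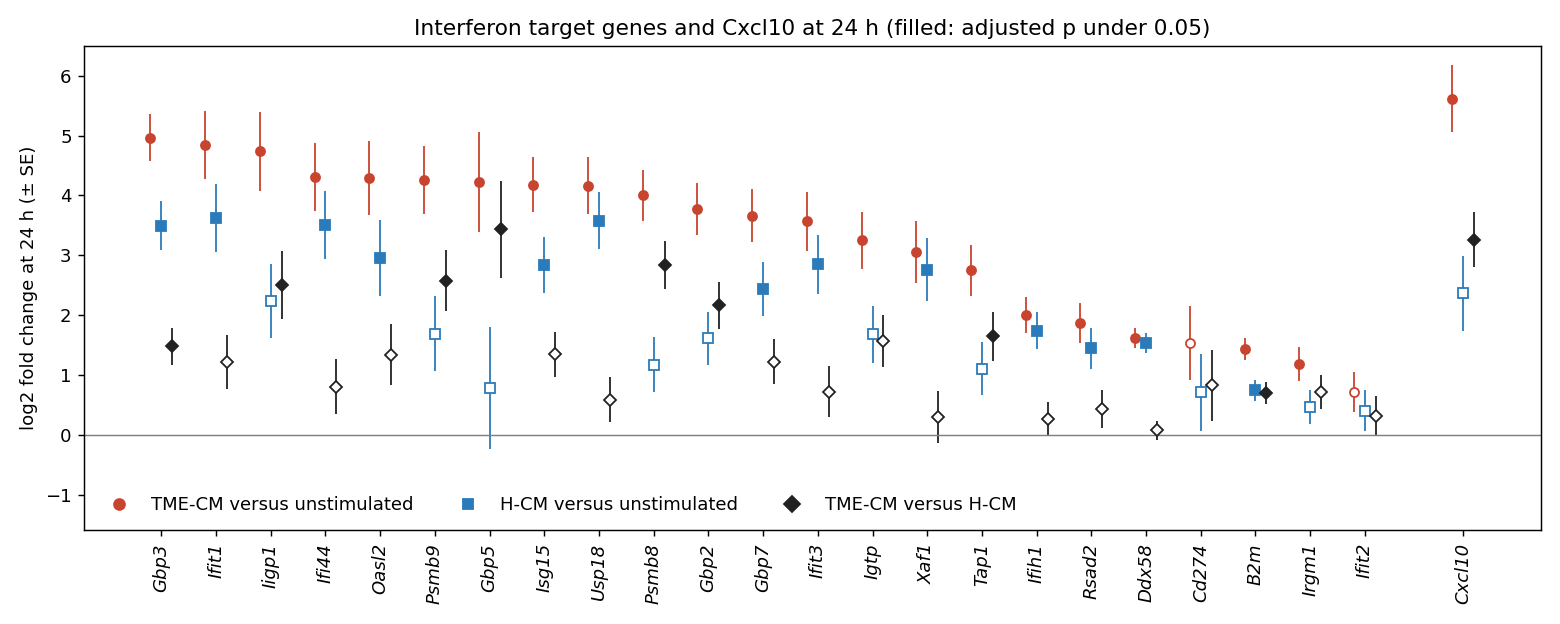
Log2 fold changes with SE at 24 h of 23 interferon target genes and, at the right, Cxcl10, for TME-CM against unstimulated (red), H-CM against unstimulated (blue) and TME-CM against H-CM (black), 4 libraries per group; filled symbols have an adjusted p under 0.05. Of the 23 genes, 21 red, 13 blue and 8 black symbols are filled, and the 3 sets share libraries.

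Among interferon receptors and signal transducers, 4 of 16 tested were higher with TME-CM than with H-CM at 24 h and 3 of 16 at 12 h, with none lower. Of all genes, 5.4% and 1.89% were called there in either direction. The count at 24 h was 1 with all 36 libraries in one model, 7 without a filter or with DESeq2, 2 without H-CM replicate 2 or 3 and 7 without replicate 1 of either medium, and the count at 12 h was 1 with all 36 libraries and 6 without a filter or without H-CM replicate 1. The largest was Socs3, a feedback inhibitor of JAK-STAT signalling (2.13 ± 0.23 at 24 h), followed by the transcription factor Irf1 (0.96 ± 0.19), the interferon gamma receptor subunit Ifngr2 (0.95 ± 0.24) and the type I receptor subunit Ifnar2 (0.59 ± 0.16). Against unstimulated EGCs, 9 of 16 were higher with TME-CM at 24 h and 4 of 16 with H-CM, beside 9.52% and 2.03% of all genes called. Of the interferons themselves, the list held Ifnb1 and Ifng only. Ifnb1 was at 0 in all libraries, and Ifng in all but 1 TME-CM library of 24 h. Of 10 NF-kB genes, Nfkbia, the inhibitor induced by NF-kB, was the one called between the media, at 0.77 ± 0.19 at 12 h and 1.01 ± 0.12 at 24 h. No gene of the list was called between the media at 12 h in the model of all 36 libraries or with only the 8 libraries compared. The same held without H-CM replicate 2 or 4 or TME-CM replicate 1, 3 or 4. Against unstimulated EGCs, 4 of 10 NF-kB genes were higher with TME-CM at 12 h and 4 of 10 at 24 h. With H-CM it was 1 of 10 at each time, and none was lower. Of all genes, 4.41% and 9.52% were called with TME-CM and 0.403% and 2.03% with H-CM.

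The genes most like each member were found by Pearson correlation of log2 CPM over the 24 libraries of 12 h and 24 h, as a description, since the libraries form groups. Closest to Cxcl10 were Lgals9 (r = 0.96), Tap1 (0.95) and Ccl2 (0.95). Cxcl16 was closest to Ier3 (0.95), Serpina3f (0.94) and Bnip3 (0.94), and Cx3cl1 to Nos2 (0.96), Serpina3f (0.96) and Sod2 (0.96). Cxcl12 was closest to Nkx2-3 (0.93), Gm13889 (0.93) and Dlk1 (0.91), and Cxcl14 to Colec10 (0.91), Gpr20 (0.87) and Gpbar1 (0.87). Among the members themselves, Cxcl10 and Cxcl16 had r = 0.93, and Cxcl12 and Cx3cl1 had r = -0.91.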

How the data were processed

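Counts of 3′ mRNA reads (QuantSeq, HiSeq4000) from 36 EGC libraries were used as deposited by the authors, as whole-number counts per gene symbol without normalization. To make them, the authors removed adapter sequence (fastq-mcf), placed reads on mm10 by HISAT2, dropped multi-mapped reads and ran HT-seq Count. The submitters' processing notes name FastQC 0.11.7 and SAMtools 1.5. The annotation, strand setting and molecular identifiers are not given in the sources used here. Totals ranged from 13518 to 7552509 counts, so that 3 counts stand for 0.327 to 110 CPM.

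In R 4.3.3, edgeR 4.0.16 fitted the 12 libraries of each time point (filterByExpr with a minimum count of 10, TMM factors, robust quasi-likelihood, Benjamini-Hochberg over all genes tested). The test of 24 h against 12 h used 24 libraries, and that of the change from 6 h used 16. Standard errors are the log2 fold change over the square root of F. Members under the filter were compared by exact permutation tests. The fitting was tested on simulated data. Alternatives were DESeq2 1.42.0, its size factors, no filter, other sets of libraries, the replicate number as a block, leaving out the entry Yam1 (10.97% to 48.62% of a library's counts) and leaving out each library. No column was left out.

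The labels do not say whether replicates are separate cultures, so p-values measure the spread between these libraries. The members and lists were chosen with earlier results of these data known. Named are all members (values that were not called are not printed for every comparison), the members' receptors, up to 4 genes per list, called ones of the largest difference between TME-CM and H-CM at 24 h first, and the 3 genes most correlated with each member of at least 5 CPM. Art3, Zmynd15, Gm2673, Usp18, Ifng, Ifnb1 and the cell type markers were named after their values were seen. Some single genes of the lists, though counted in them, are not reported here. The marker Adgre1 was read under its older symbol Emr1. Positions are from GENCODE M21 and promoters from RefSeq.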

Additional observations from a re-analysis of the deposited data

Results flagged for a closer look

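In 59 groups of 4 libraries in which a member's values were not all equal, 12 had 1 library far from the other 3 by Dixon's test. The test's rate of about 1 group in 20 by chance is for normally distributed values, so it gives no yardstick for groups with many zeros. Where 1 library had counts and the others had 0, the group was flagged whatever the count. For Cxcl9, single libraries held all or nearly all of the group's counts: unstimulated replicate 4 of 6 h (4.90 CPM), H-CM replicate 2 of 6 h (4.74 CPM), TME-CM replicate 4 of 6 h (28.9 CPM, 131 counts, next 0.953 CPM), unstimulated replicate 3 of 12 h (0.528 CPM) and H-CM replicate 1 of 12 h (1.34 CPM). For Cxcl11 this was unstimulated replicate 2 of 12 h (0.409 CPM, 1 count).

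Cxcl10 stood apart in H-CM replicate 1 of 6 h (40.8 CPM, next 6.65 CPM), in unstimulated replicate 3 of 24 h (0.141 CPM, 1 count) and in TME-CM replicate 1 of 24 h (21.3 CPM, next 64.7 CPM). Cxcl14 stood apart in TME-CM replicate 1 of 6 h (35.6 CPM, next 1.91 CPM), Cxcl16 in unstimulated replicate 2 of 12 h (18.4 CPM, next 8.98 CPM) and Cx3cl1 in H-CM replicate 1 of 12 h (27.4 CPM, next 13.9 CPM).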

How the results depend on the processing

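Depth limits the 6 h comparisons most, with 1 H-CM library of 13518 counts. Against H-CM at 6 h, the 1 member called (Cxcl10) became 0 with DESeq2's size factors and with only the 8 libraries compared, and 2 in one model of all 36 libraries, where Cxcl16 was added, with a range of 0 to 1 when a library was left out. The model of 36 libraries also gave 2 members in TME-CM against unstimulated EGCs at 6 h and 2 in place of 5 in TME-CM against H-CM at 24 h. H-CM against unstimulated EGCs had 0 calls, but 2 at 12 h and 2 at 24 h without a filter, 1 and 2 with DESeq2's Wald test, 1 at 24 h with only 8 libraries, and 0 to 1 at either time when a library was left out. TME-CM at 24 h against 12 h had 1 call without a filter. The causes were not tested.

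The replicate number as a block gave 0 calls against H-CM at 6 h (Cxcl10 adjusted p = 0.102) and 3 of 4 at 12 h, where Cxcl10 was lost (adjusted p = 0.0891), and it changed no other count of members called. The replicate numbers did not meet the bar set for pairing, a correlation over 0.1 in every pair: 11 of 56 pairs of same-numbered libraries reached it in their deviations (-0.16 to 0.22). Of the 56, 24 correlated best with their own number, where 14 would if each number were as likely. Among them were all 4 of H-CM at 12 h and 24 h and all 4 of unstimulated and H-CM EGCs at 24 h. Whether a number marks a shared culture is not given in the sources used here.

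Of the member differences, 41 are not stated above. Of these, 0 were called, 24 took either sign under some alternative, and 3 alternatives gave a call, all for Cxcl16: H-CM against unstimulated EGCs at 12 h without a filter and without H-CM replicate 3, and TME-CM against unstimulated EGCs at 6 h in the model of 36 libraries. Which differences the text states was settled after all values were seen, so these alternatives were not printed one by one. Differences near 0 that are stated also changed sign: with libraries left out, Cxcl12 against H-CM at 6 h ran from -0.53 to 0.19, Cxcl12 in H-CM against unstimulated EGCs at 24 h from -0.084 to 0.087, and the change of the Cxcl14 effect from 6 h to 24 h from -4.41 to 0.85. Cxcl14 in TME-CM against unstimulated EGCs at 6 h was 0.18 on log2 CPM with a prior count of 2 and -0.21 with one of 0.5. Of 126 group means recomputed with other scalings, 2 moved by more than 1 SD.

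Counts of interferon target genes called between TME-CM and H-CM were, without a filter, 5 at 6 h, 16 at 12 h and 15 at 24 h, and 2 and 10 at 6 h and 12 h with DESeq2. At 6 h the count was also 2 without Yam1, 3 with only 8 libraries and 5 with all 36, and the block gave 5 at 12 h and 5 at 24 h. Against unstimulated EGCs the counts of 20 at 12 h and 21 at 24 h stayed within 1.5 times under each alternative. Those of H-CM were 14 at 12 h without a filter and 7 at 24 h with all 36 libraries. Receptor and signalling genes against H-CM numbered 6 at 12 h and 7 at 24 h without a filter, 7 at 24 h with DESeq2, and 1 at both times with all 36 libraries, which also gave 5 and 2 against unstimulated EGCs for TME-CM and H-CM at 24 h. Nfkbia's NF-kB list had 0 at 12 h with the block, 36 or 8 libraries, and up to 3 at 24 h with other settings.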
